A study of Mus musculus with 2 samples.

Results

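Genes of cholesterol synthesis, cellular sterol uptake and sterol sensing were described in whole mouse embryos at embryonic day 10.5. The 31 genes were chosen by name for their part in the pathway, with earlier results of these data known, and 30 of them were found by their Ensembl identifier among 34624 loci. No locus carried the identifier of Hmgcs1, which makes the substrate of the mevalonate pathway, so its level was not measured. Hmgcs1 enters only the description of promoters below. The series holds 1 group of untreated, normally developing embryos from CBA/Ca×C57Bl/10 crosses, with 2 replicates and no second condition. Total RNA was taken from the whole body, and whether single or pooled embryos made up a replicate is not stated in the labels, so the spread between replicates may be technical. In such bulk samples, fewer cells of a type and less RNA per cell cannot be told apart.

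Cells make cholesterol from acetyl-CoA through mevalonate, squalene and lanosterol, and they also take it up in lipoproteins and release it from lysosomes. SREBP transcription factors raise synthesis and uptake: when sterol is low, Scap carries them to the Golgi for cleavage, and when sterol is high, Insig proteins hold them in the endoplasmic reticulum. In the mouse embryo cholesterol is needed for membranes of dividing cells and is attached to Hedgehog signals, and loss of late enzymes of the pathway causes malformations in mice and people.

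Each file gave whole read counts and RPKM, the authors' read density per kilobase of transcript, scaled to library size. The counts summed to 18318181 in replicate 1 and 117522171 in replicate 2, so values of replicate 1 are the less precise. The members had 98 to 4690 reads in replicate 1 and 369 to 32830 in replicate 2. All 6 markers listed for the embryo passed 10 RPKM in both libraries, but not all were alike in them. The embryonic globin Hbb-y had 1746 RPKM in replicate 1 and 6474 in replicate 2, and Hba-x had 1284 and 3219 RPKM. These 2 were more than 2-fold higher in replicate 2, beside 2.94% of loci at 1 RPKM or more in both. Nes had 284 and 318 RPKM, and Prrx1 had 80.8 and 62.1 RPKM. The libraries also differed in markers of yolk sac endoderm and liver. The summed level of all 8 marker loci was 601 RPKM in replicate 1 and 164 RPKM in replicate 2. Of the 6 that reached 1 RPKM in both, 5 were more than 2-fold lower in replicate 2, beside 6.92% of loci. Cubn, the endocytic receptor cubilin, stood at 37.4 and 1.98 RPKM, and the apolipoprotein Apoa4 at 62.6 and 0.842 RPKM, in replicates 1 and 2, whereas Alb, serum albumin, had 13.8 and 17.7 RPKM. Of 6 markers of trophoblast and decidua, Tpbpa and Psg21 had 0 reads in both libraries, and 2 reached 1 RPKM in both. Prl2c2 had 5.20 RPKM in replicate 1 and 3.07 in replicate 2, and Prl8a2 had 1.23 and 6.38 RPKM. The part of these cell types in the levels given here was not tested.

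Most promoters of the members hold CCAAT letters, a feature that the choice of genes did not use. RefSeq windows of 300 bases (250 before and 50 after a start site, GRCm38.p6) matched 24 of the 31 genes by symbol. The unmeasured Hmgcs1 is among these genes. The CCAAT box, the letters read by the factor NF-Y, which acts with SREBP at known sterol-responsive promoters, was searched as CCAAT on both strands. It lay in a window of 21 of the 24 genes (87.5%), against 43.5% of 10439 protein-coding genes detected in these embryos and 41.1% of all 27025 genes with a window. By window the share was 66.7% of 33 member windows and 37.4% of all 32851 windows. The Sp1-type letters GGGCGG, on both strands, lay in 23 of the 24 genes (95.8%), against 68.4% of the detected protein-coding genes. These shares were not tested against each other. A strict sterol regulatory element, TCACNCCAC on both strands, lay in 1 member window, that of Hmgcs1, and in 1.24% of all windows. A match is a description of letters and not evidence of binding, and a missing match draws no inference about a factor.

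The 250 bases before the start site are given for 5 members, 5′ to 3′ along the gene, to show how CCAAT letters sit in promoters. These members are the highest enzymes (Msmo1 and Cyp51), the enzyme with the most matches (Mvk) and, of the sterol-sensing genes, Insig1 and Srebf2. All of them hold a match. Abca1, Acat2 and Scap, whose windows held no CCAAT letters, are not shown. Capitals mark CCAAT or its reverse complement ATTGG. The windows are chr8:64733579-64733828 on the minus strand for Msmo1, chr5:4104698-4104947 on the minus strand for Cyp51, chr5:114444019-114444268 on the plus strand for Mvk, chr5:28071162-28071411 on the plus strand for Insig1 and chr15:82147019-82147268 on the plus strand for Srebf2.
Msmo1: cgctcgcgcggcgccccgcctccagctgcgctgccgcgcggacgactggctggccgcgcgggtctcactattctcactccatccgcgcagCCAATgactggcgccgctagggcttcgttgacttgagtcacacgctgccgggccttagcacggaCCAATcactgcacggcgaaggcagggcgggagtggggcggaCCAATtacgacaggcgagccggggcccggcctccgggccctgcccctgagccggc
Cyp51: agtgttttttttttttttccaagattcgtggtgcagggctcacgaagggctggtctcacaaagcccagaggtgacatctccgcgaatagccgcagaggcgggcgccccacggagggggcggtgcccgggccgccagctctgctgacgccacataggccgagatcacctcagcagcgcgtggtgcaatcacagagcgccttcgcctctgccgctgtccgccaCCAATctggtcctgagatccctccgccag
Mvk: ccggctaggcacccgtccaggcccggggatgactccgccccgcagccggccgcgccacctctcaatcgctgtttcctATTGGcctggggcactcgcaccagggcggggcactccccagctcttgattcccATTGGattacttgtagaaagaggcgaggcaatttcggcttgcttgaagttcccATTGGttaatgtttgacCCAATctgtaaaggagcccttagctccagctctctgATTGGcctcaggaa
Insig1: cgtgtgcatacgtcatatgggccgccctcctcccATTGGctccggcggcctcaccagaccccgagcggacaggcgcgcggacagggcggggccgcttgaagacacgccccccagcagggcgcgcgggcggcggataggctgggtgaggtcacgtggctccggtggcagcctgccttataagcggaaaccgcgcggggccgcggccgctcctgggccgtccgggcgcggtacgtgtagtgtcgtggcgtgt
Srebf2: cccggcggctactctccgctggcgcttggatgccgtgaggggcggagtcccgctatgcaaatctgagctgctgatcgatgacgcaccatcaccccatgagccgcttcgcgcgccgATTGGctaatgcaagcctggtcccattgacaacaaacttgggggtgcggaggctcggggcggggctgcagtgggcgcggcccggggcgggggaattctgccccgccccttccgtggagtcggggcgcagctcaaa
Msmo1 has 3 marked boxes, Mvk has 5, and Cyp51, Insig1 and Srebf2 have 1 each.

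The loci of all 30 measured members were detected, 26 of them loci of 1 gene and 4 joined with other genes. Each reached 1 RPKM in both replicates, which 65.1% of protein-coding loci did and 49.4% of all loci. At 10 RPKM in both, a limit added after the values were seen, 27 members passed, against 42.2% of protein-coding loci and 29% of all loci. The median member level was 36.9 RPKM in replicate 1 and 28.2 RPKM in replicate 2, against 26.3 and 19.1 RPKM for the 12557 protein-coding loci that reached 1 RPKM in both. By mean level, 22 members lay above the median of those loci (50% by construction), 8 above their percentile 75 (25%) and 2 above their percentile 90 (10%). The loci of all measured enzymes and sterol-sensing genes thus passed 10 RPKM, those of Lss, Tm7sf2 and Scap being joined with other genes. The 3 members below it in at least 1 replicate were the receptor Vldlr and the efflux pumps Abca1 and Abcg1.

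**Figure D1:**
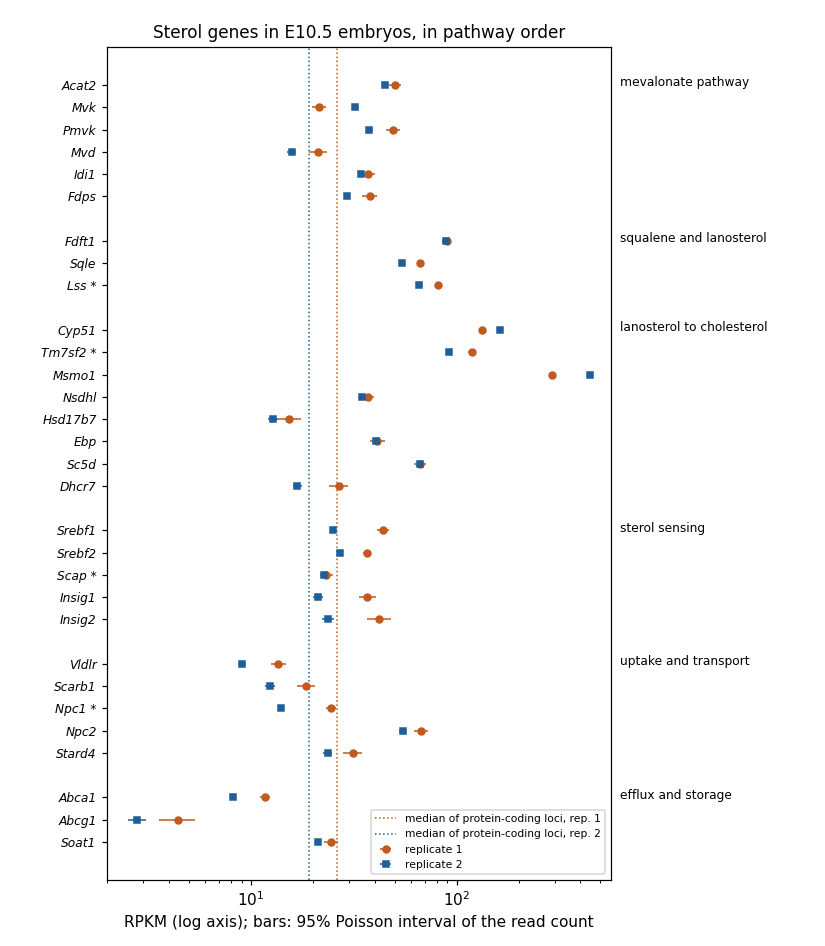
RPKM (log axis) of the 30 measured members in pathway order, replicate 1 as circles and replicate 2 as squares, with 95% Poisson intervals of the read counts and dotted lines at the medians of protein-coding loci at 1 RPKM or more in both (26.3 and 19.1 RPKM). An asterisk marks a locus joined with other genes. Levels are highest around Msmo1 and Cyp51 and lowest at Abcg1.

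The early, mevalonate enzymes stood at middle levels within a narrow range. Their 6 measured loci had a median of 37.3 RPKM in replicate 1 and 33.2 RPKM in replicate 2. Acat2, the cytosolic thiolase that joins acetyl-CoA units, was the highest at 50.4 and 44.9 RPKM in replicates 1 and 2. It has a close copy, Acat3 (36.9 and 35.7 RPKM), and how reads were split between the copies is not given in the sources used here. Pmvk, phosphomevalonate kinase, had 49.1 RPKM in replicate 1 and 37.6 in replicate 2. Fdps, which makes farnesyl diphosphate, had 37.8 RPKM in replicate 1 and 29.3 in replicate 2, and the isomerase Idi1 had 36.9 and 34.3 RPKM. All of these were somewhat higher in replicate 1. Mvd, the decarboxylase, was the lowest of the mevalonate enzymes in both libraries, with 21.2 RPKM in replicate 1 and 15.8 in replicate 2.

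Mvk, mevalonate kinase, had the largest replicate difference among the members relative to loci of its level, though within 2 SD. It had 21.4 RPKM in replicate 1 and 32.2 RPKM in replicate 2, a difference of 0.57 on the log2(RPKM + 1) scale, which lay 1.99 SD above the median of loci of like level. The reads behind it went the other way: 597 reads in replicate 1 and 2782 in replicate 2 gave 32.6 and 23.7 CPM (reads scaled by each library's sum over loci). Each RPKM unit of Mvk stood for 27.9 reads in replicate 1 and 86.4 in replicate 2, which is 3.10 times as many, whereas for single-transcript loci this number was 5.68. The length used for the authors' RPKM of Mvk in replicate 2 was therefore 0.545 of that in replicate 1, and with the length behind replicate 1 used for both, its log2 difference was -0.27.

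The middle steps, from squalene to lanosterol, were all well above the median of protein-coding loci. Fdft1, squalene synthase, which commits farnesyl diphosphate to sterols, had 89.7 RPKM in replicate 1 and 88.7 in replicate 2, nearly the same value in both. Sqle, squalene epoxidase, a rate-limiting enzyme, had 66.5 and 54.4 RPKM in replicates 1 and 2. The cyclase Lss had 81.2 RPKM in replicate 1 and 65.6 in replicate 2, in a locus joined with 4930483K19Rik, so its value may include reads of that gene. Sqle over Lss was -0.28 ± 0.01 on the log2 scale (SD, n = 2), within the limit of 1.10.

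The late steps, from lanosterol to cholesterol, held both the highest enzymes and the lowest one. Msmo1, the methylsterol oxidase, led all members with 290 RPKM in replicate 1 and 445 RPKM in replicate 2, above 98.02% of detected protein-coding loci by mean level. Cyp51, the lanosterol demethylase, followed with 133 and 162 RPKM. They were among the 4 members with a higher RPKM in replicate 2, the others being Mvk and, by 0.001 on the log2 scale, Sc5d. With the length behind replicate 1 used for both the ratio of replicate 2 to replicate 1 was 1.23 for Msmo1 and 1.09 for Cyp51. Together they made up 27.1% of the summed RPKM of the members in replicate 1 and 39.5% in replicate 2.

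Tm7sf2, a sterol reductase, came next with 119 RPKM in replicate 1 and 91.9 in replicate 2, but its locus joins Zfpl1, Vps51 and Tmem262, so the level cannot be given to Tm7sf2. Sc5d, the sterol desaturase, had 66.4 RPKM in replicate 1 and 66.5 in replicate 2. Ebp, the sterol isomerase, had 41.2 and 40.6 RPKM, and Nsdhl, which removes the carboxyl group of the methylsterol intermediates, had 36.9 and 34.6 RPKM. Sc5d, Ebp and Nsdhl therefore differed little between the libraries. Dhcr7, the reductase of the last step, whose loss in people causes Smith-Lemli-Opitz syndrome, had only 26.7 RPKM in replicate 1 and 16.8 in replicate 2. Hsd17b7, a keto reductase of the demethylation complex, was the lowest enzyme at 15.4 and 12.8 RPKM. Dhcr7 over Sc5d was -1.60 ± 0.45 (SD, n = 2), beyond the limit of 0.92, with the same sign in both replicates.

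The genes listed for sterol sensing, SREBP genes included, had like levels, and no pair among those compared was separated beyond the replicate spread. Srebf2, the SREBP gene known mainly for driving cholesterol genes, had 36.6 RPKM in replicate 1 and 27.1 in replicate 2. Srebf1, known mainly for driving fatty acid genes, had 43.9 and 25.0 RPKM. Srebf2 over Srebf1 was -0.25 in replicate 1 and 0.11 in replicate 2, so the order changed with the library and the mean of -0.07 lay within the limit of 1.22. Insig1, itself a known SREBP target, had 36.8 RPKM in replicate 1 and 21.1 in replicate 2, and Insig2 had 42.1 and 23.7 RPKM. Insig1 over Insig2 was -0.17 ± 0.02, within the same limit. Scap, the escort protein, had 23.2 RPKM in replicate 1 and 22.6 in replicate 2, in a locus joined with 5830462I19Rik. Scap over Insig1 also changed sign, with -0.64 in replicate 1 and 0.10 in replicate 2.

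Like Mvk, Scap and Insig2 had unequal lengths behind their RPKM. The length behind replicate 2 was 0.713 of that behind replicate 1 for Scap and 1.26 times it for Insig2. With the length behind replicate 1 used for both, the ratio of replicate 2 to replicate 1 was 0.695 for Scap, 0.707 for Insig2 and 0.573 for Insig1. Across the members, 8 had lengths that differed by over 10%, all of them among the 24 loci with several transcripts, beside 28.2% of all such loci with over 200 reads and 0% of single-transcript loci. The near-equal RPKM of Scap in the libraries and the larger fall of Insig2 therefore rest on the authors' lengths.

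Genes of uptake and transport were lower than most enzymes, with 1 exception. Npc2, the small lysosomal protein that hands cholesterol to Npc1, had 66.9 RPKM in replicate 1 and 54.7 in replicate 2. Npc1, the lysosomal membrane transporter, had 24.6 and 14.1 RPKM in a locus joined with Gm15956. Npc1 over Npc2 was -1.65 ± 0.34 (SD, n = 2), beyond the limit of 0.92. Stard4, a cytosolic sterol carrier, had 31.2 RPKM in replicate 1 and 23.6 in replicate 2. The receptors were lower still: Scarb1, the HDL receptor, had 18.5 and 12.4 RPKM, and Vldlr, a receptor for VLDL particles and for reelin, had 13.6 and 9.02 RPKM. Scarb1 over Vldlr was 0.42 in each replicate, within the limit of 1.05.

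Efflux genes were at the bottom of the order. Abca1, which loads cholesterol onto apolipoproteins, had 11.7 RPKM in replicate 1 and 8.14 in replicate 2. Abcg1, which exports sterol to HDL, was the lowest member with 98 and 369 reads, or 4.41 RPKM in replicate 1 (95% Poisson interval 3.58 to 5.37) and 2.79 RPKM in replicate 2 (2.51 to 3.09). Such intervals cover counting error only. Abca1 over Abcg1 was 1.25 ± 0.03, beyond the limit of 1.04 and alike in both libraries. Soat1, which esterifies cholesterol for storage, had 24.5 RPKM in replicate 1 and 21.2 in replicate 2.

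The order of levels was similar in both libraries, and near neighbours in it were mostly not separated. Of the 5 highest members in replicate 1, 4 were also among the 5 highest in replicate 2. Beyond the replicate spread, for a pair of genes, means that the log2 ratio kept its sign in both libraries and averaged over 2 SD. This SD is that of the replicate difference of all loci in the gene's level group, of 20 groups. Where the 2 genes lay in different groups, the larger SD set the limit. Along the order by mean level, 1 of 29 neighbouring steps was beyond it, that between Abca1 and Abcg1, while 199 of all 435 pairs of members were. Within the order, Fdft1 exceeded 17 members and Acat2 exceeded 10. Msmo1 and Cyp51 each exceeded 24 of the other 29 members beyond the spread, and all 29 other members exceeded Abcg1. The members were ordered by these same levels, and the share among pairs of all loci was not computed. These counts therefore describe the order and set the members apart from no other genes. The level group of Msmo1 is the widest, with an SD of 1.22, so Msmo1 over Cyp51 was within its limit.

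**Figure D2:**
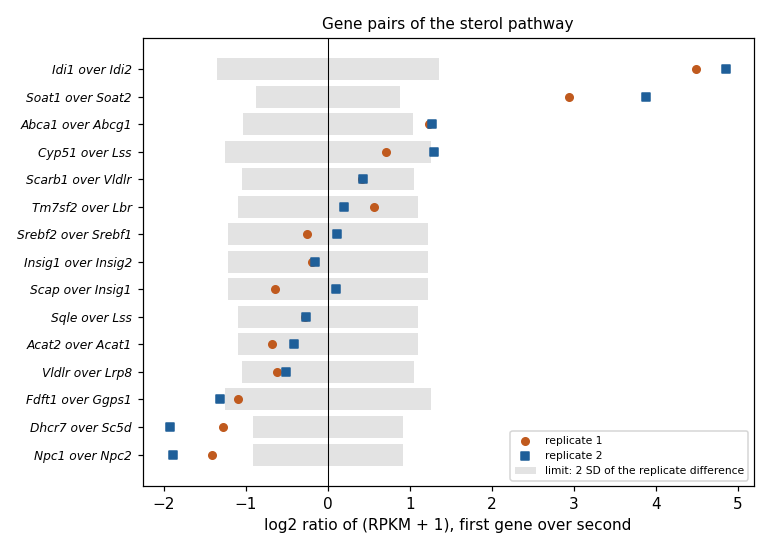
Log2 ratio of (RPKM + 1) of the first gene over the second for 15 pairs, replicate 1 as circles and replicate 2 as squares; grey bars show the limit of 2 SD of the replicate difference. Means of 5 pairs lie beyond their bars: Idi1 over Idi2, Soat1 over Soat2 and Abca1 over Abcg1 on the positive side, Dhcr7 over Sc5d and Npc1 over Npc2 on the negative side.

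Between the replicates, the members moved with the other loci of their level. On the log2(RPKM + 1) scale the members' median of replicate 2 minus replicate 1 was -0.33 (SD over members 0.35), against -0.36 over all 17090 loci at 1 RPKM or more in both. It was lower in replicate 2 for 26 of the 30 members, beside 78.3% of those loci. None of the members differed more than 2-fold, beside 6.92% of loci that were more than 2-fold lower and 2.94% that were more than 2-fold higher in replicate 2. The replicate difference also changed with level, with a median of -0.57 in the level group near 5 RPKM and 0.63 in the highest group, and 29 of the 30 members lay within 1 SD of the median of their level group, as did 79.7% of all those loci. Mvk, with its unequal lengths, lay outside.

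By role, the median replicate difference was -0.06 for the 8 late, -0.28 for the 3 middle and -0.26 for the 6 mevalonate enzymes. It was -0.77 for the 5 sterol-sensing genes, -0.54 for the 5 uptake and transport genes and -0.48 for the 3 efflux and storage genes. With the length behind replicate 1 used for both, these medians were -0.11, -0.37, -0.31, -0.50, -0.75 and -0.46, in the same order. The largest fall thus moved from the sterol-sensing genes to the uptake and transport genes. The late enzymes include the highest loci, whose level group moved the other way, and whether the roles differ was not tested. In CPM, where no length enters, 29 of the 30 members were lower in replicate 2, beside 87.6% of loci. Npc1 had 70.97 CPM in replicate 1 and 32.6 CPM in replicate 2 and was the only member more than 2-fold lower on the log2(CPM + 1) scale, beside 7.68% of loci.

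**Figure D3:**
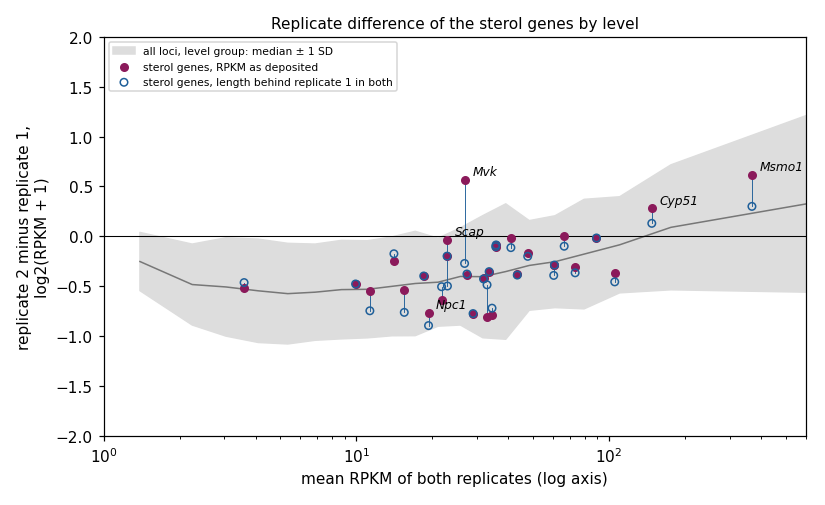
Replicate 2 minus replicate 1 on the log2(RPKM + 1) scale against mean RPKM (log axis). Filled points are members with RPKM as deposited, open points the same members with the length behind replicate 1 used for both, and the grey band is the median ± 1 SD of all loci by level group. Mvk lies above the band as deposited, at 0.57, and inside it, at -0.27, with equal lengths.

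**Figure D4:**
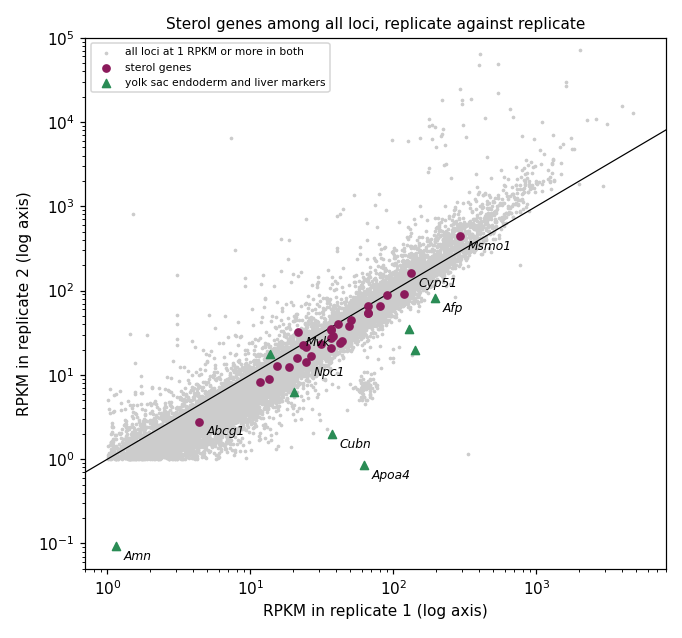
RPKM in replicate 2 against replicate 1 (log axes) for all loci at 1 RPKM or more in both (grey), the 30 members (circles) and 8 markers of yolk sac endoderm and liver (triangles); the line marks equal values. Members lie along the main body of loci, while Cubn and Apoa4 lie far below it.

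Other genes of sterol and lipid metabolism, taken from 8 further lists, were mostly detected as well. Of their 45 loci, 40 reached 1 RPKM in both replicates (65.1% of protein-coding loci did), with a median of 36.8 RPKM in replicate 1 and 23.8 in replicate 2. Isoprenoid branches that use the same precursors passed at all 8 loci. Ggps1, which diverts farnesyl diphosphate to geranylgeranyl diphosphate, had 194 RPKM in replicate 1 and 222 in replicate 2, but its locus is joined with Arid4b. Fdft1 over Ggps1 was -1.21 ± 0.15, within the limit of 1.25, and beyond it in replicate 2 alone (-1.31). The lowest of that list by mean level was Dhdds, the dolichol synthesis subunit, at 31.5 and 18.4 RPKM.

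Of the enzymes listed for the same or a like step as a member, Idi2 stood far below its counterpart. Idi1 exceeded its neighbour Idi2 by 4.67 ± 0.25 on the log2 scale, beyond the limit of 1.36, as Idi2 had 7 reads (0.690 RPKM) in replicate 1 and 13 reads (0.225 RPKM) in replicate 2. The size depends on the pseudocount at this low level, with 6.14 at 0.1 and 6.45 ± 1.04 at 0.01. Acat2 over the mitochondrial thiolase Acat1 (81.3 and 60.1 RPKM) was -0.55 ± 0.19, within the limit of 1.10. The sterol reductase Lbr, also a nuclear envelope protein, had 80.1 RPKM in replicate 1 and 80.4 in replicate 2, and the joined Tm7sf2 locus over Lbr was 0.38 ± 0.26, within the limit of 1.10.

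SREBP processing and regulation passed at all 8 loci. Mbtps1, the protease of the first SREBP cleavage, was the highest by mean level with 67.5 RPKM in replicate 1 and 63.8 in replicate 2. The protease of the next cleavage, Mbtps2, had 47.1 and 19.3 RPKM in a locus joined with Yy2. The oxysterol receptors differed in level, with Nr1h2 at 51.1 RPKM in replicate 1 and 40.7 in replicate 2, and Nr1h3, joined with Gm13783, the lowest at 2.16 and 1.38 RPKM. Fatty acid synthesis passed at all 7 loci. The highest was Scd2, a desaturase joined with Mir5114 (402 RPKM in replicate 1 and 610 in replicate 2). The lowest by mean level was Scd1 (30.8 and 23.8 RPKM). Lengths were unequal here too. With the length behind replicate 1 used for both, the ratio of replicate 2 to replicate 1 was 1.21 for Scd2 and 0.515 for Mbtps2.

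Lipoprotein receptors and their partners passed at all 4 loci. Lrp1, a broad endocytic receptor, was the highest with 109 RPKM in replicate 1 and 136 in replicate 2. The length behind its replicate 2 value was 0.636 of that behind replicate 1. With the length behind replicate 1 used for both, its ratio of replicate 2 to replicate 1 was 0.792. Lrp8, the second reelin receptor, had 21.5 and 13.3 RPKM, and Vldlr over Lrp8 was -0.57 ± 0.08, within the limit of 1.05. Lrp2, the megalin that works with cubilin, was the lowest of the list by mean level and had 16.05 RPKM in replicate 1 and 5.39 in replicate 2, a fall in the same direction as Cubn, the yolk sac marker given above; the part of yolk sac tissue in it was not tested. Lysosomal release and intracellular transport passed at all 4 loci, from Scp2 (59.6 and 80.7 RPKM) to the lysosomal lipase Lipa (11.4 and 7.54 RPKM). For Scp2 the ratio of replicate 2 to replicate 1 was 1.08 with the length behind replicate 1 used for both.

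Genes of specialised storage, efflux and steroid conversion were low. Other storage and efflux genes passed at 3 of 4 loci, led by Lcat, the plasma acyltransferase, at 5.69 RPKM in replicate 1 and 2.51 in replicate 2. Soat2, the esterifying enzyme of liver and gut, had 54 reads (2.34 RPKM) in replicate 1 and 68 reads (0.518 RPKM) in replicate 2. Soat1 exceeded Soat2 by 3.40 ± 0.66, beyond the limit of 0.88, and by 4.36 ± 1.38 with a pseudocount of 0.01. The sterol exporters Abcg5 and Abcg8 share 1 locus, at 2.44 and 1.99 RPKM. Oxysterol and steroid enzymes passed at 3 of 6 loci, led by Star, the mitochondrial sterol importer, at 6.62 RPKM in replicate 1 and 3.12 in replicate 2. Cyp11a1, the enzyme that starts steroid hormone synthesis, was the lowest with 4 reads in replicate 1 and 27 in replicate 2, or 0.182 and 0.216 RPKM. No gene of these lists had 0 reads in both libraries.

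**Figure D5:**
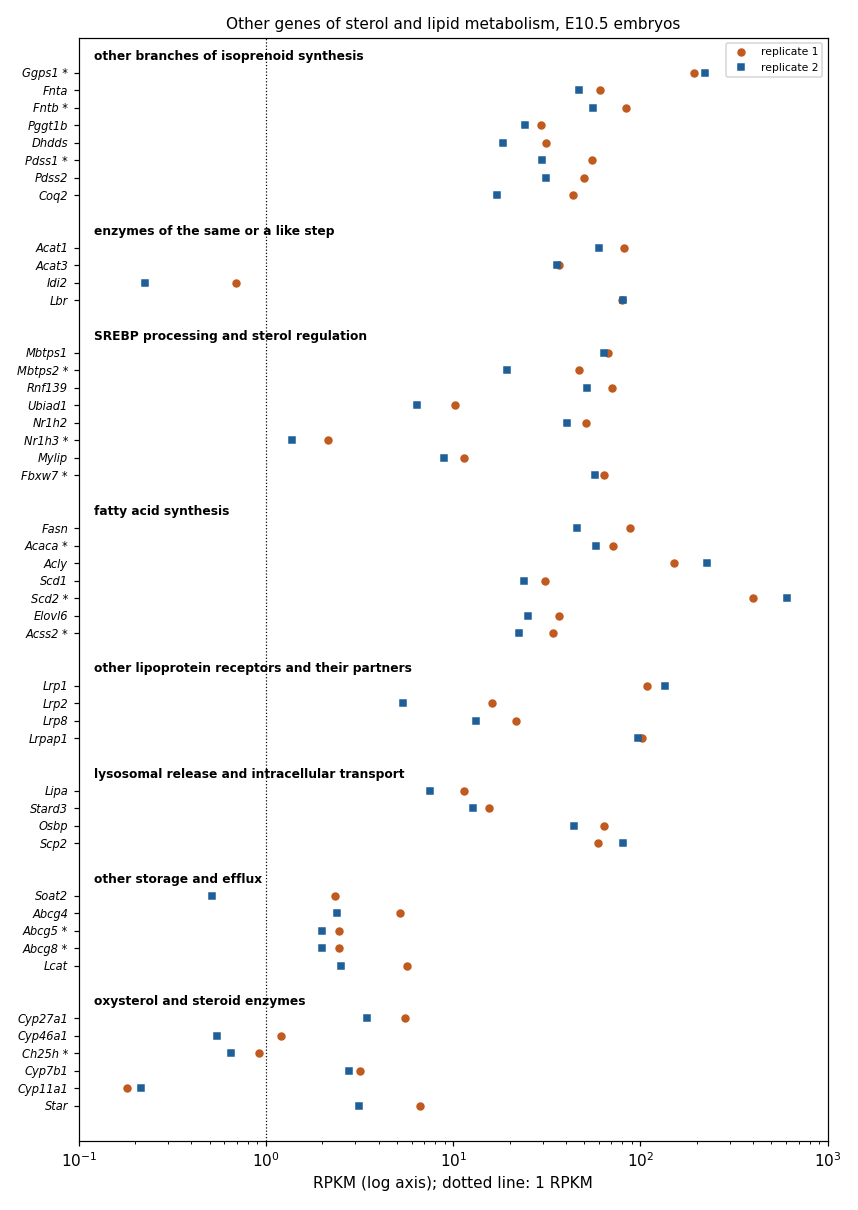
RPKM (log axis) of the 46 other genes of sterol and lipid metabolism by list, replicate 1 as circles and replicate 2 as squares, with a dotted line at 1 RPKM and an asterisk on joined loci. Storage, efflux and steroid genes all lie at or below 6.62 RPKM, and Idi2 and Nr1h3 of other lists are also low.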

How the data were processed

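Whole embryos of 1 group, in 2 replicates, gave total RNA by TRI-reagent extraction for Illumina libraries, per the labels' protocols. The submitters' processing notes name TopHat (no version) and the build mm9. For counter, annotation and strand use, nothing is given in the sources used here. Reads of a gene and of an antisense neighbour therefore cannot be told apart. The deposited files hold RPKM made by the authors and raw read counts per locus, per the file headers.

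Rows with the same identifiers (34676) were summed to 34624 loci, of which 2473 joined several genes. Symbols came from a table of names by identifier and gene classes from GENCODE M21, a later annotation. Detection meant at least 1 RPKM in each replicate. Differences used log2(RPKM + 1), which understates changes of low genes. The replicate difference was summarised in 20 level groups of detected loci, and lower loci took the lowest group. With 1 group no test between conditions exists, and no count test was run. The pair call and the 2-fold call were tested on simulated data. The simulation had less replicate spread than most level groups here, equal lengths in both libraries and no shift with level. It therefore does not give the error of these calls in these libraries.

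Named were all members and, of each other list, the highest and lowest locus by mean RPKM and the pair genes. Acat3, Mbtps2, Nr1h2, Ch25h, Cyp46a1 and the Abcg5 and Abcg8 locus, and the markers, were named after their values were seen. Some planned genes and 1 planned pair are not reported here. Members, lists and pairs were chosen with earlier results of these data known. Alternatives covered the minimum, the pseudocount, scaling, filters, joined loci and each replicate left out. The 10 RPKM minimum and the equal lengths were added after seeing the data. Python 3.11.15, pandas 2.3.3, NumPy 2.4.6, SciPy 1.17.1 and Matplotlib 3.10.9 were used.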

Additional observations from a re-analysis of the deposited data

How the results depend on the processing

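The count of detected members ranged from 26 (loci of their own) and 27 (10 RPKM) to 30, and that of the other genes from 29 (10 RPKM) to 43 (0.3 RPKM). Scaling mattered most. With RPKM rescaled to the same sum, the members' median replicate difference was -1.17, and 21 members were more than 2-fold lower in replicate 2. The median of all loci moved to -1.14, itself past 2-fold, so the count of 21 reflects the scaling. The share of all loci past 2-fold at that scaling was not computed. In CPM 1 member was more than 2-fold lower, beside 7.68% of loci. The members' median stayed within 0.07 of the median of all detected loci under every scaling and pseudocount tried, and was 0.17 below it without a filter. Leaving out a replicate gave a median level of 28.2 to 36.9 RPKM and 5 to 7 pairs beyond the spread. Of 105 pair values under alternatives, 100 kept their call and their sign. Another 3 passed newly (Cyp51 over Lss once, Fdft1 over Ggps1 under 2 alternatives). The other 2 changed sign but stayed within the limit of 1.22. Without replicate 1, Srebf2 over Srebf1 was 0.11 and Scap over Insig1 was 0.10, while without replicate 2 they were -0.25 and -0.64. The cause was not tested. CPM was not used for pairs, since it is not per length. No paired analysis was possible because there is only 1 group. Depth limits the genes with few reads, such as Abcg1 among the members and Idi2, Cyp11a1, Ch25h and Cyp46a1 among the others, and a count of 0 allows up to 0.164 CPM in replicate 1 and 0.0255 CPM in replicate 2.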
